A study of Mus musculus with 6 samples.

Results

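Histone lysine methyltransferases, which write methyl marks on histone tails, and histone lysine demethylases, which erase them, were followed in LD-1, a mouse cholangiocarcinoma (bile duct cancer) line, with and without hepatocyte growth factor (HGF). Members were chosen by gene symbol alone (names that begin with Kmt, Kdm, Setd, Setdb, Nsd, Ehmt, Ezh or Suv39h), which gave 46 of 28212 genes in the table. Of these, 27 were counted as writers and 18 as erasers, and the last, Kdm6bos, is an antisense RNA of the Kdm6b locus and belongs to neither. The 27 include 5 genes with other or unsettled substrates, counted as writers by their symbols. One group of libraries came from cells stimulated with HGF and the other from controls, with 3 libraries each, and the labels name no other genotype or treatment. The material is labelled both as LD-1 cells and as tumour tissue. How much HGF was added, and for how long, is not stated in the labels. The design text says that the aim was to see which genes change when these cells meet HGF.

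A methyl mark is read according to the lysine that carries it. Methylation of histone H3 at lysine 4 (H3K4) marks promoters and enhancers, at lysine 36 (H3K36) the bodies of transcribed genes, and at lysines 9 and 27 (H3K9, H3K27) silenced chromatin, while methylation of histone H4 at lysine 20 (H4K20) is tied to compaction, replication and repair. Writers take the methyl group from S-adenosylmethionine, mostly through a SET domain. Erasers are either flavin-dependent amine oxidases (Kdm1a, Kdm1b) or JmjC dioxygenases that need iron and 2-oxoglutarate. Chromatin regulators and the isocitrate dehydrogenases that make 2-oxoglutarate are recurrently mutated in human cholangiocarcinoma.

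Total counts per library were 57073866 to 66302502, and the bile duct markers listed for the line summed to 753 to 783 FPKM (fragments per kilobase, scaled to library size) in controls and 1410 to 1420 with HGF. Control 3 stood apart through skeletal muscle transcripts (225 FPKM summed over 9 muscle genes, against 2.11 to 3.80 in the other 5 libraries). Myh4 and Myh1, which define fast muscle fibres, were at 0 in the other 5 libraries. Control 3 also had the highest sum of 8 macrophage genes, 121 FPKM. That sum was 47.2 and 52.5 in Control 1 and Control 2, and 73.7 to 79.0 with HGF. Of these 8 genes, 2 were called higher with HGF and 0 lower. They were Cd68 (mean 48 FPKM with HGF, 27.6 in controls) and Cd14 (10.7 and 7.37). The HGF libraries held more of 10 hepatocyte genes (11.5 to 18.6 FPKM summed, against 1.83 to 3.21 in controls). The sum of 8 fibroblast genes was also higher (45.0 to 48.1, against 11.5 to 12.8), with 5 of them called higher. Most of it was Col3a1 (mean 30.3 FPKM with HGF, 5.42 in controls) and Col1a1 (13.3 and 4.79). Pdgfra (0.662 and 0.632) and Dcn (0.3 and 0.172) had no call. The part of these other transcripts in the members' values was not tested. In bulk RNA, fewer cells of a type and less RNA per cell cannot be told apart. No label says that the replicates were separate cultures, so the p-values cover only the spread between libraries, which may be technical.

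HGF was followed by small changes in both directions in this gene family. Kmt5c, which writes H4K20 methylation at heterochromatin, had the largest fall and fell by 37.5%, and Ezh1, an H3K27 writer, fell by 31.6%. The largest rises were those of Kdm5c, an H3K4 eraser (39.6%), the H3K4 writer Kmt2d (38.6%) and the H3K27 eraser Kdm6b (37.0%), whose order is within their error. Of 45 members that passed the low-count filter, 9 rose (20%) and 8 fell (17.8%) at an adjusted p of 0.05 (edgeR quasi-likelihood test, Benjamini-Hochberg over 17322 genes). Over all tested genes 38.5% were called, 19.1% higher and 19.3% lower, so the members' shares of calls lie near the background. The changes were small: 2 of 45 members (4.44%), Kmt5c and Ezh1, were called with an absolute log2 fold change of at least 0.5, against 2636 of 17322 genes (15.2%). These 2 shares were not matched for level: the median of mean FPKM was 4.73 in tested members and 3.32 in all tested genes.

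Rises and falls were balanced. The median log2 fold change (HGF minus control) was -0.02 over the members and -0.02 over all tested genes. Among the 41 members with a mean FPKM of at least 1, 9 rose (22.0%) and 8 fell (19.5%), against 24.2% and 23.9% of all genes at that level. In scaled counts relative to library size, the groups were separate (no overlap of libraries) in 23 of 45 members, against 51.4% of all genes. Without the scaling for RNA composition (trimmed mean of M values, TMM) the median of all genes moved from -0.02 to -0.13, and the members then split into 6 higher and 16 lower, and all genes into 2361 higher and 4941 lower. Leaving out a library lowered the count of members that fell to 2 without HGF 2, 4 without Control 2 and 5 without Control 1, where the count over all genes went from 3349 to 2340, 2492 and 2680. Without Control 3 the counts were 8 higher and 8 lower, with Kdm5b and Setd7 no longer past the threshold and Kdm3a past it.

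Calls went both ways among writers and among erasers. Of 27 writers, 5 rose (18.5%) and 6 fell (22.2%), with a median log2 fold change of -0.01. The 27 include 5 SET domain genes with other or unsettled substrates, of which 2 rose (Setd5 and Setd3) and 0 fell. Of 17 tested erasers, 4 rose (23.5%) and 2 fell (11.8%), with a median of -0.05. The difference between these shares was not tested. Kmt5c, Ezh1, Kmt2d, Suv39h1, Setd5, Kdm5c and Kdm6b kept their calls under all 16 alternative settings tried, and the other 10 of 17 calls were lost under at least 1 of them.

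**Figure D1:**
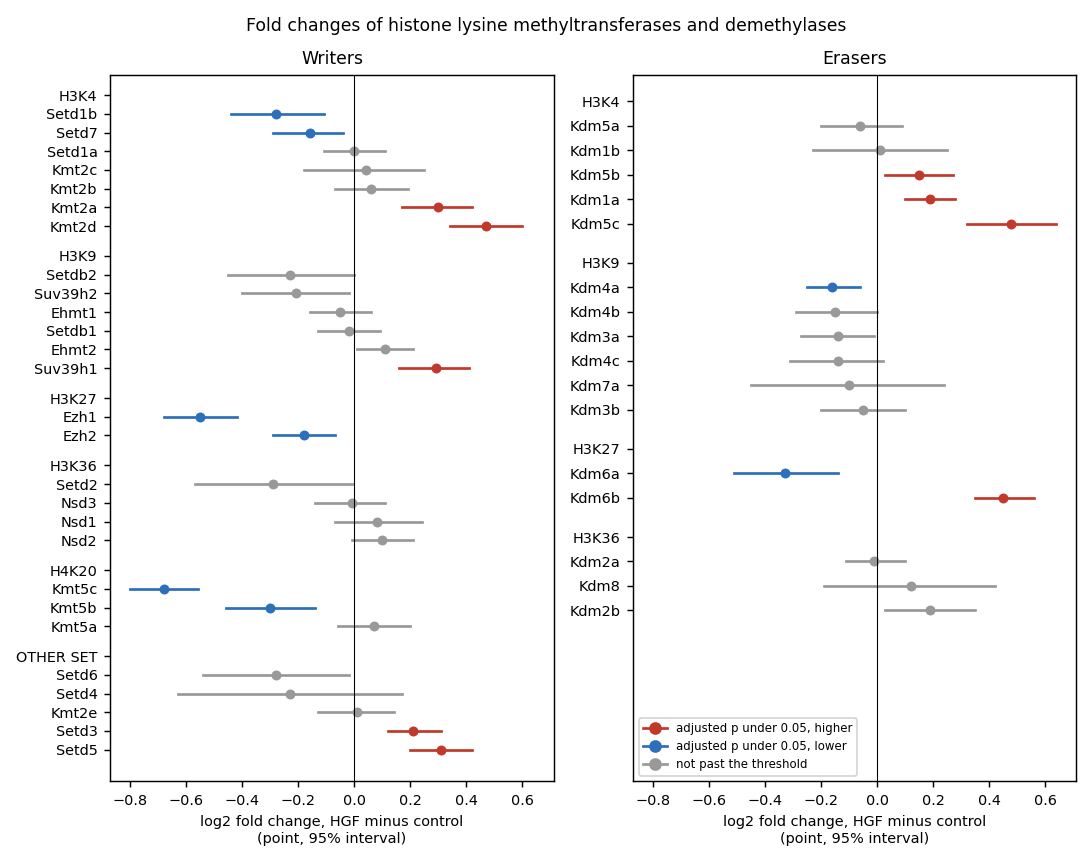
Log2 fold change of each tested writer (left) and eraser (right), HGF minus control, with its 95% interval, grouped by the histone lysine acted on. SET domain genes with other or unsettled substrates form their own group. Red and blue mark members past adjusted p 0.05, from -0.68 (Kmt5c) to 0.48 (Kdm5c), and grey the rest. Kdm5d and Kdm6bos, with wide intervals, are left out.

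Levels in FPKM, which rest on the gene length used, differed far more between members than between groups. Ehmt2, which writes H3K9 methylation in euchromatin, had by far the highest level, a mean of 63.0 FPKM over 6 libraries (60.5 to 65.8). Kdm5c (24.7 FPKM), Kdm1a (23.8), Kmt5a (19.9) and Kdm4a (18.6) followed, and the ranges of Kdm5c and Kdm1a over the 6 libraries overlap. In all, 13 members had a mean FPKM of at least 10, 28 lay between 1 and 10, and 5 lay under 1. Kmt2c, a large enhancer H3K4 writer, had a mean of only 0.665 FPKM. Kdm4d, a testis-enriched H3K9 eraser, had counts of 4, 4 and 0 with HGF and 4, 0 and 0 in controls and did not pass the filter. Kdm5d, the Y-linked counterpart of Kdm5c, passed it with counts of 16, 8 and 8 with HGF and 6, 19 and 16 in controls, which overlap.

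Of the 3 writers of H4K20 methylation, Kmt5c and Kmt5b fell. Kmt5c (ENSMUSG00000059851, chromosome 7, 4740115 to 4747514), the enzyme that adds the later methyl groups at pericentric heterochromatin, had an FPKM of 10.0, 9.32 and 9.31 with HGF and 15.8, 16.6 and 16.6 in controls. All HGF libraries lay well below all controls, and the fitted log2 fold change was -0.68 ± 0.05 (SE, edgeR adjusted p = 3.44e-05). Kmt5b, its more broadly acting paralogue, had an FPKM of 1.34, 1.25 and 1.28 with HGF and 1.63, 1.67 and 1.79 in controls. These groups do not overlap either, and the log2 fold change was -0.30 ± 0.07 (edgeR adjusted p = 0.0100), a call lost without HGF 2 (log2 fold change -0.27, adjusted p = 0.0615). Kmt5a, which places the first methyl group and is tied to the cell cycle, stood at 18.7, 19.1 and 21.4 FPKM with HGF and 20, 19.8 and 20.3 in controls. The Kmt5a groups overlap, and its log2 fold change of 0.07 (95% interval -0.06 to 0.20) did not pass the threshold.

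Both catalytic subunits of the H3K27 writer, Polycomb repressive complex 2 (PRC2), fell. Ezh1 (ENSMUSG00000006920, chromosome 11, 101191115 to 101226463), the subunit that persists in resting cells, had an FPKM of 5.08, 4.70 and 4.60 with HGF and 7.67, 7.50 and 7.31 in controls. The highest HGF library lay below the lowest control, with a log2 fold change of -0.55 ± 0.06 (edgeR adjusted p = 1.26e-04). Ezh2, the subunit of dividing cells, had an FPKM of 11.2, 11.5 and 12.2 with HGF and 13.9, 14.4 and 13.8 in controls. Its groups were also separate, but the log2 fold change was smaller, -0.18 ± 0.05 (edgeR adjusted p = 0.0155), and the call was lost without HGF 2 or without Control 2 (adjusted p up to 0.0652 over the alternatives). A part of Ezh2, 2.61% of its exonic bases, overlaps another annotated gene on the opposite strand.

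The erasers of H3K27 moved apart. Kdm6b (ENSMUSG00000018476, chromosome 11, 69398508 to 69413675), an inducible enzyme known from inflammatory responses, had an FPKM of 16.6, 15.8 and 15.7 with HGF and 12.6, 12.2 and 12.7 in controls. It was higher in each HGF library than in any control, by a log2 fold change of 0.45 ± 0.04 (edgeR adjusted p = 1.05e-04). Kdm6a, the X-linked eraser that also sits in the Kmt2c and Kmt2d complexes, had an FPKM of 2.20, 2.31 and 2.65 with HGF and 3.16, 3.38 and 3.06 in controls. Its libraries were lower with HGF without overlap, by a log2 fold change of -0.33 ± 0.08 (edgeR adjusted p = 0.0136), a call lost without HGF 2 or without Control 2 (adjusted p up to 0.0603). Kdm6bos, which overlaps Kdm6b over 286 exonic bases on the opposite strand, had counts of only 22, 30 and 10 with HGF and 22, 32 and 30 in controls. It showed no call (log2 fold change -0.38, 95% interval -1.56 to 0.79), and reads of the pair cannot be told apart where counting ignored strand.

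**Figure D2:**
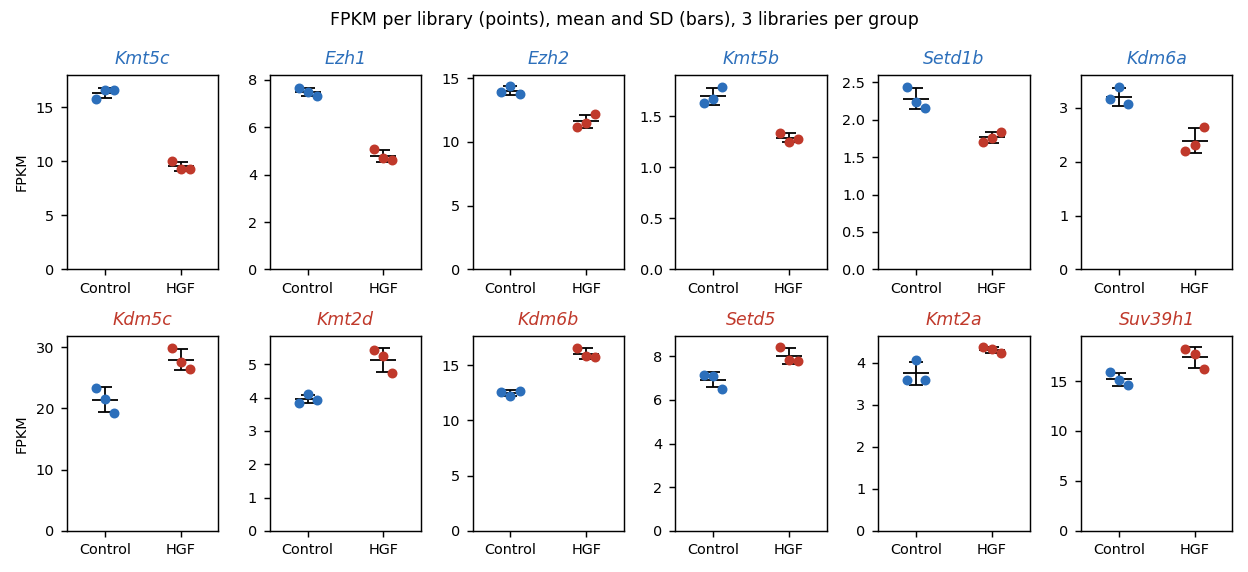
FPKM of 12 members that passed the threshold, one panel each, with points for the 3 control and 3 HGF libraries and bars for mean and SD; y axes start at 0. Upper panels fell and lower panels rose, with the largest fold in Kmt5c (9.31 to 10.0 with HGF, 15.8 to 16.6 in controls).

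H3K4 writers went in both directions. Kmt2d (ENSMUSG00000048154, chromosome 15, 98831669 to 98871204), the main enhancer H3K4 writer, had an FPKM of 5.44, 5.24 and 4.75 with HGF and 3.85, 4.11 and 3.93 in controls. The groups were well separated, with a log2 fold change of 0.47 ± 0.06 (edgeR adjusted p = 3.09e-04). Kmt2a, the MLL gene of human leukaemia translocations, had an FPKM of 4.37, 4.32 and 4.23 with HGF and 3.59, 4.07 and 3.59 in controls, a narrow separation. Its log2 fold change was 0.30 ± 0.06 (edgeR adjusted p = 0.00311), a call lost with limma on FPKM (adjusted p up to 0.0690). Setd1b, a promoter H3K4 writer, fell by 0.28 on the log2 scale (SE 0.07, edgeR adjusted p = 0.0147), from 2.44, 2.24 and 2.16 FPKM in controls to 1.70, 1.75 and 1.84 with HGF, and missed the threshold without HGF 2 or without Control 1. Setd7, which adds a single methyl group to H3K4 and to other proteins, fell by 0.16 (SE 0.06, edgeR adjusted p = 0.0458), and this call was lost under 10 of 16 alternatives. Setd1a, which shares 51.85% of its exonic bases with the same-strand gene Gm49388 (log2 fold change 0.00, 95% interval -0.11 to 0.11), Kmt2b (0.06, -0.07 to 0.19) and Kmt2c (0.04, -0.18 to 0.25) did not pass it.

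Erasers of H3K4 had 3 of 6 members higher and 0 lower, where 19.1% of all tested genes were higher and 19.3% lower. Kdm5c (ENSMUSG00000025332, chromosome X, 152233020 to 152274535), a JmjC eraser, had an FPKM of 29.8, 27.6 and 26.4 with HGF and 23.4, 21.6 and 19.3 in controls. The groups do not overlap, and the log2 fold change was 0.48 ± 0.07 (edgeR adjusted p = 8.00e-04). Kdm1a, which encodes the amine oxidase LSD1, had an FPKM of 24.8, 24.9 and 24.2 with HGF and 23.6, 23.4 and 22.1 in controls. This narrow separation gave a log2 fold change of 0.19 ± 0.04 (edgeR adjusted p = 0.00503), which was not called without TMM or with limma on FPKM (adjusted p up to 0.109). Kdm5b lay just inside the threshold (log2 fold change 0.15 ± 0.05, edgeR adjusted p = 0.0496), its FPKM groups overlap (4.73 to 4.94 with HGF, 4.35 to 4.94 in controls), and its call was lost under 8 of 16 alternatives. Kdm5a, Kdm1b and Kdm5d did not pass the threshold, with log2 fold changes of -0.06 (95% interval -0.20 to 0.09), 0.01 (-0.23 to 0.25) and -0.31 (-1.84 to 1.22). Of the exonic bases of Kdm1b, 9.19% overlap Dek on the opposite strand, which had 4118.8 counts per library on average against 1025.7.

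The H3K9 writers held 1 call. Suv39h1 (ENSMUSG00000039231, chromosome X, 8061171 to 8074760), which writes the trimethyl mark of constitutive heterochromatin, had an FPKM of 18.2, 17.7 and 16.2 with HGF and 15.9, 15.1 and 14.6 in controls. The lowest HGF library was just above the highest control. Of its exonic bases, 14.55% overlap the antisense gene Gm14820, which had a mean count of 0.2. For Suv39h1, the log2 fold change was 0.29 ± 0.06 (edgeR adjusted p = 0.00396). Its paralogue Suv39h2 had an FPKM of 1.83, 1.80 and 1.83 with HGF and 2.18, 2.31 and 2.24 in controls, and its log2 fold change of -0.21 missed the threshold (95% interval -0.40 to -0.02, edgeR adjusted p = 0.0838). Ehmt2 (log2 fold change 0.11, 95% interval 0.01 to 0.21) and Setdb1, which silences retroelements (-0.02, -0.13 to 0.09), did not pass it, nor did Setdb2 (-0.23, -0.45 to 0.00) and Ehmt1 (-0.05, -0.16 to 0.06). Ehmt2 was called under 5 of 16 alternatives.

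Of 6 tested erasers of H3K9, 1 fell and 0 rose, against 19.3% and 19.1% of all tested genes. All 6 point estimates were below 0, as were those of 9081 of 17322 genes, and that of Kdm7a was above 0 (0.02) without HGF 2. Kdm4a, which also acts on H3K36, had an FPKM of 17.5, 16.8 and 16.8 with HGF and 20.8, 20.6 and 19.3 in controls. It fell by 0.16 on the log2 scale (SE 0.04, edgeR adjusted p = 0.0178), and the call was lost without HGF 2, HGF 3, Control 1 or Control 2 and with the length trend removed (adjusted p up to 0.0998). Kdm3a, a hypoxia-inducible eraser (log2 fold change -0.14), Kdm4b (-0.15), Kdm4c (-0.14), Kdm7a (-0.10) and Kdm3b (-0.05) did not pass the threshold. Of the exonic bases of Kdm3b, 24.6% overlap Gm26538 on the opposite strand.

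No writer or eraser of H3K36 passed the threshold. Setd2, the sole trimethyl writer at this site, had an FPKM of 3.20, 3.47 and 4.57 with HGF and 4.63, 4.87 and 5.20 in controls. HGF 3 lay next to the controls, and the log2 fold change of -0.29 ± 0.12 was not called (edgeR adjusted p = 0.0923), though it was under 6 of 16 alternatives, among them without HGF 3. Nsd1, Nsd2 and Nsd3, which write the dimethyl mark, had log2 fold changes of 0.08, 0.10 and -0.01, with 95% intervals inside -0.14 to 0.24. The erasers Kdm2a (-0.01, 95% interval -0.11 to 0.10) and Kdm2b (0.19, 0.03 to 0.35) gave no call. Nor did Kdm8 (0.12, -0.19 to 0.42), which was counted as an eraser by its symbol. The Kdm2b edgeR adjusted p was 0.0667.

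A last set of SET domain genes has other or unsettled substrates. Setd5 (ENSMUSG00000034269, chromosome 6, 113077365 to 113153435), whose own methyltransferase activity is disputed, had an FPKM of 8.42, 7.82 and 7.78 with HGF and 7.13, 7.10 and 6.52 in controls. All HGF libraries exceeded all controls, with a log2 fold change of 0.31 ± 0.05 (edgeR adjusted p = 0.00118). Setd3, which methylates a histidine of actin, had an FPKM of 17.2, 17.8 and 18.0 with HGF and 16.6, 16.5 and 15.7 in controls. It rose by 0.21 ± 0.04 (edgeR adjusted p = 0.00360), a call lost without TMM or with limma on FPKM. Setd6, which methylates the NF-kB subunit RelA, Setd4 and Kmt2e, which lacks established activity, had log2 fold changes of -0.28 (95% interval -0.54 to -0.02), -0.23 (-0.63 to 0.17) and 0.01 (-0.13 to 0.14), with no call. Of the exonic bases of Kmt2e, 9.31% overlap Srpk2 on the opposite strand.

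Ratios of members within a library do not depend on how libraries are scaled and restate the values above as a balance of related genes. With 3 libraries a group the exact two-sided permutation test cannot give a p under 0.10, and the smallest p adjusted over the 22 pairs compared was 0.147, so no pair passed 0.05. Kdm6a to Kdm6b had a ratio of 0.132, 0.146 and 0.168 with HGF and 0.250, 0.277 and 0.241 in controls, a log2 difference of -0.78. Kmt2d to Kdm6a, partners in an enhancer complex, had ratios of 2.47, 2.27 and 1.79 with HGF and 1.22, 1.22 and 1.28 in controls, a log2 difference of 0.80. Ezh2 to Kdm6b, writer and eraser of H3K27, had ratios of 0.671, 0.726 and 0.773 with HGF and 1.10, 1.18 and 1.08 in controls. In FPKM the eraser thus lay above the writer in each HGF library and below it in each control. The FPKM imply lengths of 7.44 kb for Ezh2 and 7.73 kb for Kdm6b, which need not be those of the transcripts present. Which gene lies above depends on these lengths, while the change of the ratio does not. Suv39h1 to Suv39h2 had ratios of 9.99, 9.80 and 8.85 with HGF and 7.31, 6.51 and 6.53 in controls. Ezh1 to Ezh2 had ratios of 0.455, 0.410 and 0.378 with HGF and 0.552, 0.520 and 0.530 in controls, lower with HGF. Kdm4a to Kdm4b and Nsd1 to Nsd2 overlapped, with log2 differences of -0.01 and -0.02.

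**Figure D3:**
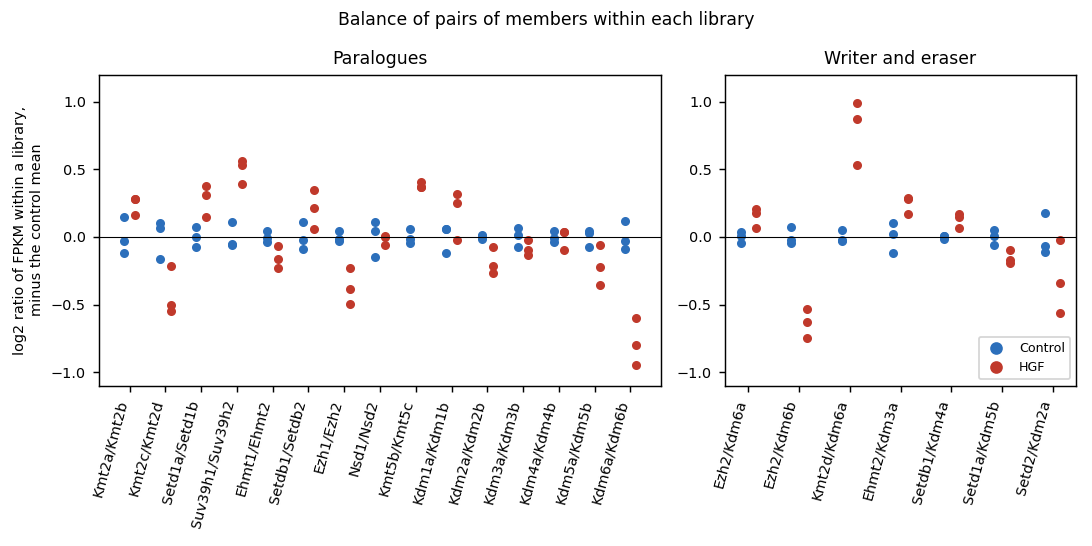
Log2 ratio of the FPKM of 2 members within each library, minus the mean of the 3 controls, for 15 pairs of paralogues (left) and 7 pairs of a writer and an eraser (right). Each point is a library. Kdm6a/Kdm6b and Kmt2d/Kdm6a lie farthest from the controls, with mean differences of -0.78 and 0.80.

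Summed FPKM gives a rough weight of each role, since FPKM rest on the gene length used. Writers summed to 245, 240 and 241 FPKM with HGF and 261, 257 and 252 in controls, and erasers to 146, 138 and 138 against 144, 141 and 131. Of the writer sums, SET domain genes with other or unsettled substrates gave 34.9, 35.4 and 36.5 with HGF and 35.9, 34.7 and 35 in controls. These sums carry the library scaling of the deposited FPKM, without TMM. With library size only, the median log2 fold change of all genes was -0.13, so a lower sum with HGF includes that general shift. The H4K20 writers summed to 30.6 ± 1.26 FPKM (SD, n = 3) with HGF and 38.1 ± 0.658 in controls, and the H3K27 writers to 16.4 ± 0.320 and 21.5 ± 0.424. The H3K27 erasers summed to 18.4 ± 0.379 with HGF and 15.7 ± 0.111 in controls. The H3K4 erasers summed to 63.8 ± 2.14 with HGF and 56.1 ± 3.34 in controls, and the H3K9 erasers to 45.8 ± 1.37 and 53.8 ± 2.78.

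Promoter windows are shown for the pair of members that fell most and for Kmt2d and Suv39h1, picked after their values were seen from the members that rose and kept their calls under all 16 alternatives, so that the letters around their starts can be compared. Windows run from 250 bases before to 50 after a RefSeq start (build GRCm38.p6), and 34 of 46 members matched by symbol. They are Kmt5c at chr7:4739877-4740176 (plus strand), Ezh1 at chr11:101226414-101226713 (minus), Kmt2d at chr15:98871156-98871455 (minus) and Suv39h1 at chrX:8074711-8075010 (minus). Each is written 5′ to 3′ in its gene's direction, with the motif letters named below in capitals, on either strand.
Kmt5c: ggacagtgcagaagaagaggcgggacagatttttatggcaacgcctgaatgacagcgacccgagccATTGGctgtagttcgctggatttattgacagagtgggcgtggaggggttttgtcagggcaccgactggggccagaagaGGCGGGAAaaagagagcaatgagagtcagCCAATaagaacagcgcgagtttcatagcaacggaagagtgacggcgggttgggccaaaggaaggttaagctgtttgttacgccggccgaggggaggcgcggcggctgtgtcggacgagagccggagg
Ezh1: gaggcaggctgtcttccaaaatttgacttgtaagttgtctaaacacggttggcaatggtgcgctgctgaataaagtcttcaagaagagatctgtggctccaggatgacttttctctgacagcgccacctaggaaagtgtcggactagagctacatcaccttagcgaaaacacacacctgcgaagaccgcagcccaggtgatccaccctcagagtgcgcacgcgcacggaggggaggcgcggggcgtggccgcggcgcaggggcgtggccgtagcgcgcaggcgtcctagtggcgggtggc
Kmt2d: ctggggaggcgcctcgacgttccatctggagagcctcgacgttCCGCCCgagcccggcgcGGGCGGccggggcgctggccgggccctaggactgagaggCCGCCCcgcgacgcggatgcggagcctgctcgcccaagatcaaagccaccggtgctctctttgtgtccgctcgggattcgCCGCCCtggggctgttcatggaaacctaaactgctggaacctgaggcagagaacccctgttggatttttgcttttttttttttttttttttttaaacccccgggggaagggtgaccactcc
Suv39h1: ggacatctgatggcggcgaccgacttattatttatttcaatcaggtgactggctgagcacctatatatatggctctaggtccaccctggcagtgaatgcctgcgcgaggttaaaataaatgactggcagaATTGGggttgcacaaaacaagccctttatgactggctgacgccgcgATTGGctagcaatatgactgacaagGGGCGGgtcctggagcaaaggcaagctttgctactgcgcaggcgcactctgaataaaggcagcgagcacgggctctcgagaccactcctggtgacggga
The letters searched were CCAAT (NF-Y), GGGCGG (GC box), CCGGAAG (ETS), TGANTCA (AP-1), CACGTG (E-box) and GGCGGGAA (E2F). The GC box and E2F letters can overlap. Kmt5c held CCAAT at 2 places and the E2F letters at 1, Suv39h1 held CCAAT at 2 and the GC box at 1, and Kmt2d held the GC box at 4. The Ezh1 window held none of these letters, which says nothing of the factors. The GC box was in 21 of 34 member windows (61.8%) and in 35.9% of 27025 gene windows, CCAAT in 14 (41.2%, against 37.9%), the ETS letters in 5 (14.7%, against 9.12%) and the AP-1 letters in 2 (5.88%, against 7.93%). The E-box was in 2 (5.88%, against 7.24%) and the E2F letters in 2 (5.88%, against 2.24%). Members with several windows were given the one nearest their listed start, while the 27025 genes were given the first. The 27025 also go beyond the 17322 tested genes, so the shares are not like for like and were not tested.

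Many members are long by the gene length that the deposited counts and FPKM imply. This length is not that of a single transcript. For Ezh2 it was 7.44 kb, while all its annotated exons together hold 6678 bases. The median was 9.04 kb in tested members against 4.09 kb for all tested genes, and 27 of 45 lay among genes of 7.59 kb and over. In that length class 20.8% of all genes rose and 24.3% fell, with a median log2 fold change of -0.05, against -0.01 for those 27 members. With the length trend removed, 11 members rose and 6 fell, against 3597 and 3018 of all genes.

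Partners of these enzymes were counted in listed groups. For each list given here and below, the shares over all tested genes are 19.1% higher and 19.3% lower. The lists are short, and their shares were not tested against these. Of 12 subunits of the COMPASS family of H3K4 writer complexes, 2 rose and 0 fell: Men1, which encodes menin (log2 fold change 0.27 ± 0.05, edgeR adjusted p = 0.00468), and Hcfc1 (0.22 ± 0.07, 0.0289). Of 10 PRC2 partners, 5 rose and 1 fell, with a median of 0.15. The histone chaperone gene Rbbp4 rose by 0.33 ± 0.06 (edgeR adjusted p = 0.00288) and Phf19, which reads H3K36 methylation, by 0.33 ± 0.07 (0.00552). Suz12, a core subunit named after its values were seen, was the one that fell (log2 fold change -0.36 ± 0.12, edgeR adjusted p = 0.0383), from 16.8, 18.6 and 18.6 FPKM in controls to 11.1, 12.2 and 15.9 with HGF. The PRC2 list therefore held members in both directions while both catalytic subunits fell.

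Of 20 genes of Polycomb repressive complex 1 and H2A ubiquitin, 3 rose and 6 fell, with a median of -0.13. Phc3, a polyhomeotic subunit, had an FPKM of 1.65, 1.69 and 1.83 with HGF and 0.475, 0.426 and 0.446 in controls. This separation (log2 fold change 2.03 ± 0.08, edgeR adjusted p = 1.29e-06) was far larger than that of any member. Among 11 H3K9 partners and readers, 2 rose and 4 fell, with Uhrf1, which couples H3K9 methylation to DNA methylation, at 0.43 ± 0.04 (edgeR adjusted p = 4.01e-05) and the Ehmt partner Zfp644 at -0.54 ± 0.11 (0.00367). Among 11 LSD1 partners, 3 rose and 2 fell, with Zmym3 at 0.29 ± 0.05 (edgeR adjusted p = 0.00339).

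Related enzymes outside the symbol rule also held calls in both directions. Of 10 tested lysine methyltransferases with other names, 4 rose and 3 fell, and of 9 tested JmjC proteins, 2 rose and 2 fell. Smyd5 rose from 8.43, 8.67 and 8.67 FPKM in controls to 14.1, 12.6 and 12.4 with HGF (log2 fold change 0.70 ± 0.06, edgeR adjusted p = 4.18e-05), and Smyd4 rose by 0.41 ± 0.06 (0.00104). The hydroxylase gene Jmjd6 rose by 0.45 ± 0.06 (edgeR adjusted p = 5.73e-04), and Hif1an, which hydroxylates hypoxia-inducible factor, fell by 0.39 (SE 0.05, 6.33e-04). Of 11 genes that supply cofactors, 5 rose and 2 fell. Idh2, a mitochondrial source of 2-oxoglutarate, rose by 0.51 ± 0.04 (edgeR adjusted p = 3.30e-05) and Ahcyl1, a relative of the enzyme that clears S-adenosylhomocysteine, by 0.38 ± 0.06 (9.42e-04).

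**Figure D4:**
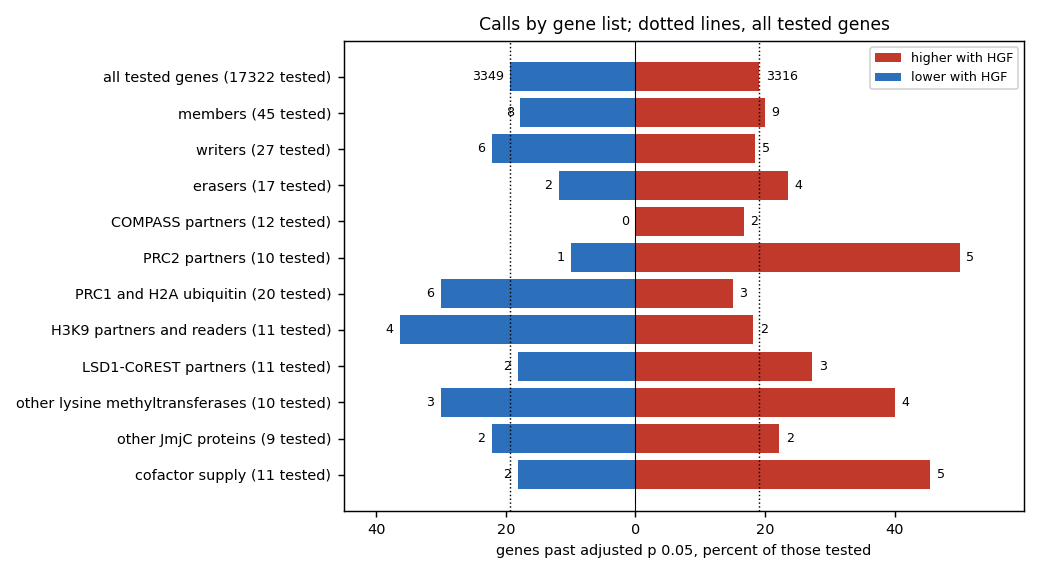
Share of tested genes past adjusted p 0.05 in each list, higher with HGF to the right (red) and lower to the left (blue), with the number of genes at each bar. Dotted lines mark the shares over all tested genes, 19.1% and 19.3%; the bars of all members end near them, at 20% and 17.8%.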

How the data were processed

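RNA of 6 libraries (3 HGF, 3 control) was sequenced as read pairs after poly(A) selection, per the labels' protocols, which also speak of adipose material. The authors deposited whole-number counts and FPKM per gene and library, per the file headers. The FPKM are the authors' values, scaled for length and library size. Build mm8 and the tools StringTie 1.3.0, HISAT2 2.0 and Bowtie 0.12.2 are listed, per the submitters' processing notes, but all 46 members are in GENCODE M21 (GRCm38) and 40 carry its coordinates. The sources used here do not state each tool's role, the annotation or the strand setting, so genes that overlap on opposite strands could share counts.

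Groups came from the sample titles. Low counts were removed with filterByExpr, libraries were scaled with TMM (factors 0.963 to 0.968 with HGF, 1.03 to 1.04 in controls) and genes were tested two-sided by edgeR 4.0.16 (quasi-likelihood, R 4.3.3), Benjamini-Hochberg adjusted over 17322 genes. Standard errors are the log2 fold change over the square root of F, and 95% intervals are unadjusted. On average 1108.5 genes per library had a count of 4, but only 527.3 had 3 and 306.0 had 5. Read pairs may thus weigh several counts, and molecules may be fewer than the totals. Libraries of a group correlated at 0.971 to 0.987, so none was a copy of another. On counts divided by 4, pairs of them differed by a chi-square of 2.55 to 6.41 per degree of freedom. The divisor is assumed, and such differences do not show that the libraries came from separate cultures. Alternatives were DESeq2 1.42.0, limma 3.58.1 on log2(FPKM + 1) and log2(FPKM + 0.1), where fold changes understate those of low genes, other scalings and filters, a replicate block, counts divided by 4, a length correction and each library left out. Ratios of pairs used an exact permutation test (SciPy 1.17.1). The count test was checked on simulated data. Named genes were, per role, up to 4 members past the threshold by smallest p and the 2 others of highest FPKM, and per partner list the 2 called genes of smallest p; further members were named to account for all. Some genes that this rule names are not reported here. Members and lists were chosen with earlier results of these data known.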

Additional observations from a re-analysis of the deposited data

How the results depend on the processing

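All 17 calls kept their direction in all 16 alternatives. With library size only, 6 members were higher and 16 lower (writers 4 and 11, erasers 2 and 5), and of all genes 2361 and 4941. With limma on log2(FPKM + 1) or log2(FPKM + 0.1) 5 members were higher and 14 lower (writers 3 and 10, erasers 2 and 4). Of all genes, limma gave 2310 higher and 4550 lower, or 2301 and 4531. Neither library size only nor limma used TMM. With the length trend removed 1 eraser was lower. Leaving out a library gave 8 to 11 members higher and 2 to 8 lower (writers 5 to 6 and 2 to 7, erasers 3 to 5 and 0 to 3), with fewer samples in each fit. Over all genes these fits gave 2553 to 3174 higher and 2340 to 3054 lower. With a replicate block 10 members were higher and 10 lower, and 6846 genes were called (3406 higher, 3440 lower) in place of 6665. Over all tested genes, deviations of same-numbered libraries correlated at 0.0592, -0.03 and 0.0377, and those of differently numbered ones at -0.0882 to 0.0635. Genes of low count weigh fully in this check, so it cannot exclude pairing. The replicate numbers do not say that libraries were paired, so the block was kept as an alternative.

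Of the 28 members without a call, 10 were called under at least 1 alternative and 12 changed sign, with reported log2 fold changes between -0.10 and 0.10, so no direction is read from them. With library size only, Kmt2b, Nsd1, Kmt2e, Kmt2c, Kdm1b, Setd1a, Kmt5a and Nsd2 had log2 fold changes of -0.04, -0.02, -0.09, -0.06, -0.09, -0.10, -0.03 and -0.00. With limma on log2(FPKM + 1), Kmt2b, Nsd1, Kmt2e, Kmt2c, Kdm1b, Setd1a and Kmt5a were at -0.03, -0.01, -0.07, -0.02, -0.06, -0.09 and -0.02, and on log2(FPKM + 0.1) at -0.03, -0.01, -0.08, -0.05, -0.09, -0.09 and -0.02. Kdm2a was at 0.01 with DESeq2 and with median-of-ratios scaling, 0.00 with no low-count filter and with a mean FPKM of at least 1, and 0.03 with the length trend removed. Nsd3 was at 0.00 with median-of-ratios scaling and 0.01 with the length trend removed, Setdb1 at 0.03 there, and Setd1a at -0.00 with counts divided by 4. Leaving out each library gave values for Kdm1b from -0.10 to 0.08, Setd1a from -0.03 to 0.05, Nsd3 from -0.06 to 0.01, Setdb1 from -0.06 to 0.02, Kdm7a from -0.29 to 0.02, Kdm2a from -0.04 to 0.03, Kmt2e from -0.02 to 0.04 and Kmt2c from -0.04 to 0.09.
The cause of these shifts was not tested beyond the scaling each setting uses. With 3 libraries a group, 23 of 28 members without a call had 95% intervals within 0.5 of 0 on the log2 scale, so larger changes lie outside the intervals of those members. Kdm5d, Kdm6bos, Setd4, Setd2 and Setd6 had wider ones. Protein, enzyme activity and histone marks were not measured here.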

Other observations

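Values of HGF 3 lay nearer to the controls than those of HGF 1 and HGF 2 in a few genes, which were chosen after their values were seen. Setd2 was at 4.57 FPKM in HGF 3 against 3.20 and 3.47, Suz12 at 15.9 against 11.1 and 12.2, and Psip1, a reader of H3K36 methylation, at 14.5 against 9.53 and 12. Pagr1a, a small subunit of the Kmt2c and Kmt2d complexes, stood out in the other direction, with counts of 366, 479 and 2014 with HGF and 728, 638 and 558 in controls, and had no call. Smyd1, the methyltransferase of striated muscle, did not pass the filter and had counts of 0, 4 and 0 with HGF and 15, 10 and 97 in controls, the last in Control 3, the library with the muscle transcripts.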
